A study of Homo sapiens with 480 samples.

Results

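The cells described here are those collected on day 16 after OCT4, SOX2, KLF4 and MYC were delivered by virus and induced in BJ fibroblasts, an established human skin fibroblast line, and sorted as positive for the surface epitope TRA-1-60. Their table held 96 cells. A cell was kept with at least 2000 genes at a value of 1 or more and with ACTB or GAPDH at 1 or more, after FPKM (fragments per length of transcript and per library) were rescaled to the same total in every cell. This left 95 of 96 cells, and every value given below is such a rescaled FPKM unless another scale is named. In the series of 480 cells, 460 passed the same filter. The other groups were BJ cells without the factors, 2 earlier times with them (day 2 and day 8), and the TRA-1-60 negative cells of day 16. Both day 16 fractions carried the same factors and the same time. Cells were captured on Fluidigm C1 chips and polyadenylated RNA was read. No label names more than 1 culture or infection for a group. Cells are therefore not replicates, no test was made, and intervals on shares of cells (exact Clopper-Pearson, 95%) cover counting error only.

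TRA-1-60 is a carbohydrate epitope carried by podocalyxin, the product of PODXL, and marks human pluripotent cells and late reprogramming intermediates. During reprogramming, fibroblasts lose collagen and contractile gene expression, take up epithelial junction genes, and then turn on their own network of pluripotency genes. Human pluripotent cells in the usual culture state depend on signalling by Nodal and its relatives, whose ligands, co-receptor and secreted antagonists are themselves made by these cells.

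The kept cells fell into a larger set with many genes and a smaller set with few, and some genes differed strongly between these sets. Genes per cell ran from 2759 to 8794 with a median of 5869. In 32 of the 95 cells (33.7%) fewer than 4000 genes were detected, with a median of 3183, against 6422 in the other 63. The values nearest the limit were 3983 and 3985 genes just under it and 4119 and 4224 just above it. Among the kept cells of the other groups, the share under 4000 genes was 8.70% in BJ, 15.6% at day 2, 4.35% at day 8 and 3.53% in the negative fraction.

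**Figure D1:**
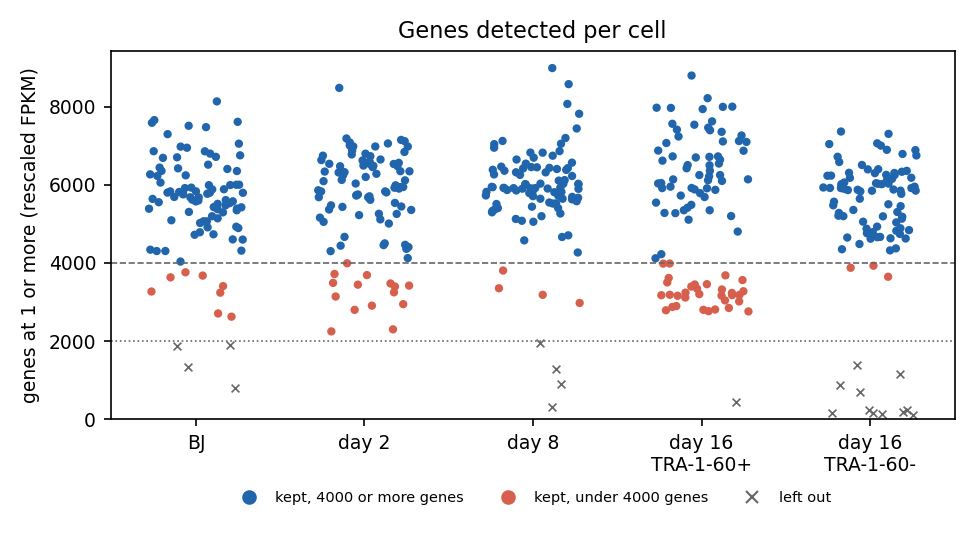
Each point is 1 cell, by group, with the number of genes at a rescaled FPKM of 1 or more on the vertical axis; the dotted line is at 2000 and the dashed line at 4000 genes. Of the positive cells, 32 lie between the lines and 63 above the upper one.

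Several genes nearly separated the 32 cells from the 63. Apart from RPL11, those named here are among the 10 highest and 10 lowest in the 32 cells, so a large difference follows from the choice. The sets were also split on the number of genes detected, so low values of many genes in the 32 are in part built in. HNRNPA1P10, a pseudogene of HNRNPA1 by its name, was at 1 or more in 31 of the 32 cells with a median of 290, and in 4 of the 63. GLYAT, a glycine acyltransferase, had a median of 78.8 in the 32 cells and 1.68 in the rest, and ENKUR a median of 416 and 10.4. In the other direction, the tubulin folding cofactor TBCA had a median of 0.988 and 1083, the cytokine MIF 51.4 and 4190, and the ribosomal protein gene RPL11 19.6 and 1837. The mitochondrial chaperone gene BCS1L had a median of 0.376 in the 32 cells and 3113 in the 63. The cells nearest the limit were mixed. The cell with 4224 genes had HNRNPA1P10 at 48.98 and TBCA at 426, and the one with 3985 genes had 127 and 92.7. The latter had BCS1L at 8101 but RPL11 at 0, while the cell with 3983 genes had BCS1L at 4.03 but RPL11 at 2207 and MIF at 4571. A similar difference appeared in day 2 cells, where GLYAT had a median of 46.6 in the 15 cells under 4000 genes and 1.98 in the other 81, while MIF had 5.001 and 770. HNRNPA1P10 and BCS1L differed the other way there, with medians of 23.4 and 74.3 and of 2496 and 907. At day 8 GLYAT was at 1 or more in 0 cells of either kind.

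Among 13711 genes with a mean of 1 or more in either set, 1247 (9.09%) were at least 2-fold higher in the 32 cells and 6179 (45.1%) at least 2-fold lower, so 16.8% of these differences were upward. These ratios are of means, which a few high cells can set. The 1247 genes had a median log2 ratio of means of 1.85 but a median difference of mean log2(value + 1) of 0.29, and the 6179 genes had -2.01 and -1.18. With FPKM as deposited they numbered 1969 and 4280, and 31.5% were upward. The scaling moved the median log2 ratio of all genes from -0.78 to 0.02, and to -0.27 with scaling by the summed housekeeping list. The fibroblast list stood at a median log2 ratio of -1.81, -0.68 and -1.14 in these 3 scalings and ribosomal proteins at -1.05, -0.30 and -0.54, while core pluripotency genes changed sign, at -0.28, 0.44 and 0.23. As a difference of mean log2(value + 1) the core pluripotency median did not change sign, at -1.31, -0.92 and -1.06. Ribosomal protein genes took a median of 6.05% of a cell's total in the 32 cells and 12.5% in the 63. RNR1 and RNR2, the ribosomal RNA genes of mitochondria, took 13.5% and 4.20%, and reached 74.6% in 1 of the 32. RPL11, a gene every cell uses, was at 1 or more in only 23 of the 32 cells, so a gene at 0 in them is listed at 0 and is not shown to be unexpressed. Whether cell state, capture or library quality set these cells apart was not tested. Results are therefore given for all 95 cells and for the 63 cells of 4000 or more genes. Among the 63, cell 78 also stood apart, with 76.2% of its total in the small nucleolar RNA gene SNORD21. Leaving it out changed none of the shares, counts or correlations recomputed without it by more than the limits stated in the closing section.

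The 5 markers of the fraction were present in most cells. All 5 of NANOG, LIN28A, GDF3, TDGF1 and DNMT3B were at 1 or more in 58 of 95 cells (61.1%, interval 50.5% to 70.9%) and in 48 of the 63 (76.2%, interval 63.8% to 86.02%). Of the remaining kept cells, 24 held 4 markers, 8 held 3 and 5 held 2, and none held fewer. In the same count, 70 of 85 negative cells held none and none held more than 2, while 3 of 92 day 8 cells held 4. PODXL itself was at 1 or more in 91 of 95 cells.

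GDF3, a ligand of the TGF-beta family, was at 1 or more in 90 of 95 cells and in 63 of 63. Its values in the 63 cells ran from 4.18 over a median of 945 to 6790. The lowest cells were at 4.18, 7.18 and 8.15. LIN28A, which binds let-7 precursors, ran from 0 over 118 to 421 and was present in 61 of 63. TDGF1, the co-receptor of Nodal, ran from 0 over 325 to 3099 and was present in 59 of 63. These ligand and co-receptor genes were the highest of the 5. NANOG, a homeodomain factor of the pluripotency network, ran from 0 over 93.2 to 247 in the 63 cells and was present in 58. DNMT3B, a de novo DNA methyltransferase, ran from 0 over 71.04 to 566 and was present in 54. In the 32 cells the medians were lower for all 5 genes, at 203 for GDF3, 63.2 for LIN28A, 281 for TDGF1, 11.7 for NANOG and 2.96 for DNMT3B. Their ranges overlapped those of the 63 cells. Means ran the other way for 4 of the 5 genes. NANOG averaged 328 in the 32 cells and 93.01 in the 63, with 1 of the 32 at 4811, while DNMT3B averaged 51.5 and 137.

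**Figure D2:**
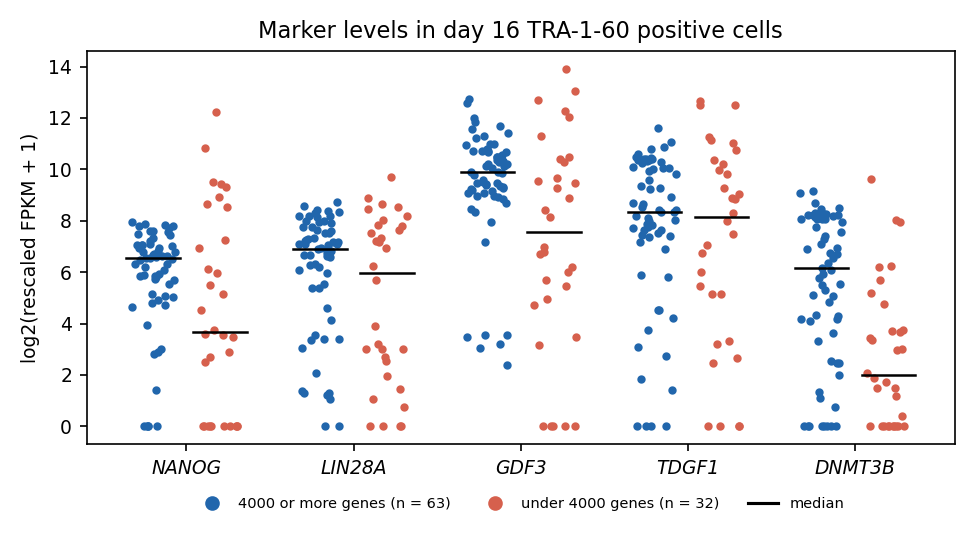
Each point is 1 positive cell, with log2(rescaled FPKM + 1) of the 5 marker genes on the vertical axis, split at 4000 genes; black lines are medians. GDF3 is above 0 in every one of the 63 cells, and the sets overlap for each gene.

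Core pluripotency genes beyond the markers ranged from present everywhere to nearly absent. Of the 35 list genes, 7 were detected in at least 90% of the 95 cells, 15 in 50% to 90% and 13 in fewer, and the list genes per cell ran from 9 over 18 to 31. Over all 12708 genes with a mean of 1 or more, 4.54% were detected in at least 90% and 33.9% in at least 50% of these cells. SOX2, one of the delivered factors as well as a pluripotency gene, was in all 95 cells, with a median of 186 and a range of 24.9 to 652 in the 63. Whether its reads came from the virus or from the cell's own gene was not tested. ESRG, a noncoding RNA of pluripotent cells, was in 94 of 95 and the RNA-binding protein gene L1TD1 in 89. At the other end, ZFP42, the zinc finger gene also called REX1, was in 4 of 95 cells, TERT, the telomerase catalytic subunit, in 7, and the germline and naive-state genes DPPA3 and DPPA5 in 12 and 7. DPPA2 was in 23 cells, 21 of them among the 63. Each of the 18 naive pluripotency genes was detected in fewer than 50% of cells, and KLF17, KHDC1L and HORMAD1 were below 1 in all 95. Taken as 3 counts of the 95 cells, this allows up to 3.16% of cells with a value of 1 or more, and sets no limit on cells that express the gene.

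Of 20 Nodal pathway genes, 5 were detected in at least 90% of the 95 cells, 6 in 50% to 90% and 9 in fewer. NODAL was in 83 of 95 cells, with a range of 0 to 911 and a median of 175 in the 63. LEFTY2, a secreted Nodal antagonist, was in all 95 cells and ran from 1.86 over 300.0 to 7266 in the 63. LEFTY1, its neighbour and close relative, was in 89 cells and ran from 0 over 211 to 9562. LEFTY1 and LEFTY2 are close copies between which reads can be split, so their separate levels are uncertain. FOXH1, the DNA-binding partner of SMAD2, was in 57 cells and SMAD2 also in 57. The receptor genes ACVR2B and ACVR1B were in 61 and 10. CFC1, a second co-receptor gene, was below 1 in all cells. TUBB of the housekeeping list was also below 1 in all 95. Such a value, here and below, therefore does not show that a gene is unexpressed. CER1, another antagonist and a gene of early endoderm, was in 14 cells, and its highest value of 2852 in cell 56 was 70.5% of its sum over the 63 cells, against 352 in the next cell.

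Most genes listed for differentiated fates were found in a minority of cells. Of 27 mesendoderm and endoderm genes, 24 were detected in fewer than 50% of the 95 cells, and 3 in more. These 3 were the signalling ligand genes NODAL, WNT3 and BMP4, in 83, 62 and 51 cells. Of all genes with a mean of 1 or more, 33.9% were detected in at least 50% of these cells. The 27 were counted without that limit on the mean, so their share cannot be set against it. Only 14 of the 27 had a mean of 1 or more in the 63 cells or in the cells under 4000 genes. The list summed to between 0 and 13742 per cell, with a median of 537. MIXL1, a homeobox gene of the primitive streak, was in 24 of 95 cells (25.3%) and in 19 of the 63, where the cells that held it had a median of 28.1. It was found with CER1 in 6 of the 63 cells, without it in 13, and CER1 without MIXL1 in 6. T was in 2 cells, EOMES in 2 and GSC in 0. The neural genes PAX6 and SOX1 were in 18 and 1, and the trophoblast keratin gene KRT7 in 5. The neural tubulin gene TUBB3 was in 71 of 95 cells, and TFAP2A and TFAP2C, transcription factor genes of the trophoblast list, in 91 and 53. Of 17 blood and immune genes, 10 were below 1 in every cell, and the list summed to at most 144. The share of all genes below 1 in every cell is not given here. VWF of the endothelial list was below 1 in every cell, and PECAM1 was in 1.

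The 63 cells ranged from low to high pluripotency gene levels, with fibroblast and mesenchymal genes highest at the low end. Whether they formed a continuous order or separate groups was not tested. A score was taken as the mean log2(value + 1) over the 35 core pluripotency genes, and ran from 1.30 in cell 30 to 5.82 in cell 13. Its Spearman correlation across the 63 cells was -0.67 with the fibroblast score, -0.71 with mesenchymal factors and markers and -0.53 with contractile genes. It was 0.73 with the epithelial score and 0.75 with ribosomal proteins. The cells share a culture, and the score also followed genes per cell, at 0.53. Taking genes per cell out of the ranks left -0.70, -0.75, -0.58, 0.60 and 0.64. Over all 95 cells the first 3 correlations were -0.02, -0.22 and 0.18, and -0.49, -0.54 and -0.40 with genes per cell taken out. The 32 cells lay low on the pluripotency and fibroblast scores alike.

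**Figure D3:**
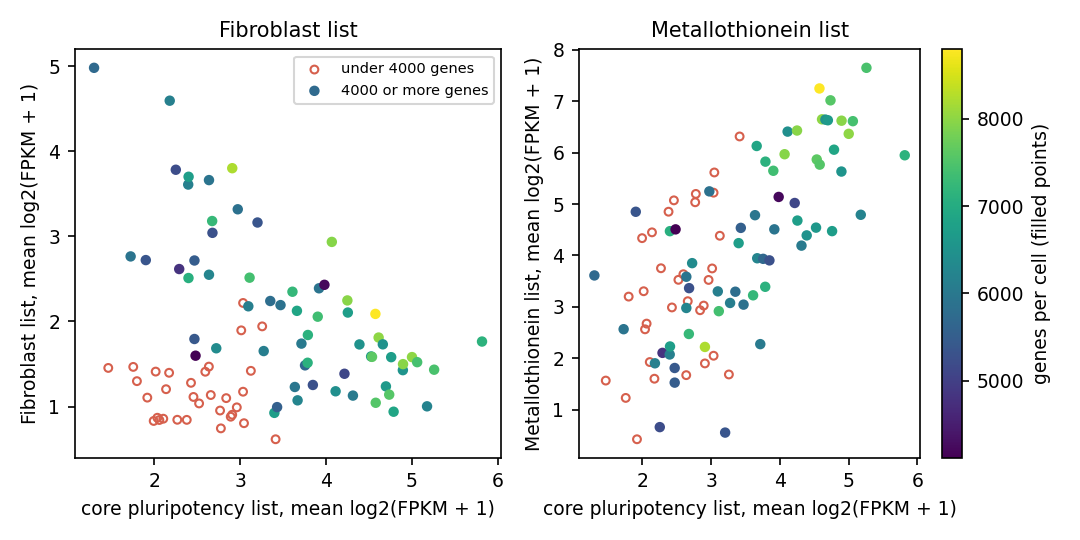
Each point is 1 positive cell; the horizontal axis is the mean log2(rescaled FPKM + 1) of the core pluripotency list and the vertical axis that of the fibroblast list (left) or the metallothioneins (right). Filled points are the 63 cells of 4000 or more genes, coloured by genes per cell, and open points the other 32, which lie at the lower left of the fibroblast panel.

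The genes that followed this order most closely came from several functions. Of 6535 genes outside the list with a mean of 10 or more and present in at least 20% of the 63 cells, 394 (6.03%) had a correlation of 0.4 or more with the score and 221 (3.38%) one of -0.4 or less. The highest was FABP5, a fatty acid binding protein gene, at 0.81, with a range of 0 over 121 to 420. TERF1, which binds telomere repeats, came next at 0.80, with a range of 0 over 129 to 563. Then followed RPS24 at 0.78, the nucleolar chaperone gene NPM1 at 0.76, and ESRP1, an epithelial splicing regulator, at 0.75. RPSAP58, RPSA, MT1F, FOXD3-AS1 and SLIRP made up the 10 highest, at 0.72 to 0.74. RPSAP58 is a pseudogene of RPSA, so their reads may be split.

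The lowest correlation belonged to TGFBI, an extracellular matrix protein gene induced by TGF-beta, at -0.79. Its values in the 63 cells ran from 0 over 1.15 to 2704, and it was at 1 or more in 32 of them. PALLD, an actin-bundling protein gene, was at -0.76 and ran from 0 over 33.3 to 419. COL2A1, a fibrillar collagen gene best known from cartilage, was also at -0.76 and ran from 0 over 5.09 to 1144. TGFBI and COL2A1 were found together in 29 of the 63 cells and both below 1 in 26, and their correlation was 0.74. COL2A1 was in 34 of the 63 cells, in 24 of 85 negative cells and in 3 of 92 day 8 cells. S100A11, ATP2B1, CST3, GYPC, CD63, VIM and TMSB4X filled the rest of the 10 lowest, at -0.72 to -0.68.

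Individual cells show both ends. GDF3, TDGF1, NANOG and DNMT3B are part of the score, and TGFBI and COL2A1 were named for their low correlation with it, so their values partly follow from the choice of cells. Cell 30, with the lowest score and 5723 genes, had TGFBI at 1350, COL1A2 at 1204, S100A4 at 3088 and the imprinted noncoding RNA H19 at 2874. It had GDF3 at 4.18 and TDGF1 at 54.7, and NANOG, DNMT3B and EPCAM at 0. Cell 62 had TGFBI at 1492 and H19 at 2426 beside GDF3 at 6203, so a high GDF3 value also occurred at the low end. Cell 13, with the highest score, had NANOG at 191, DNMT3B at 352, EPCAM at 275, and TGFBI and COL2A1 at 0. Cells 72 and 1 likewise had TGFBI at 0, with NANOG at 229 and 73.1.

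**Figure D4:**
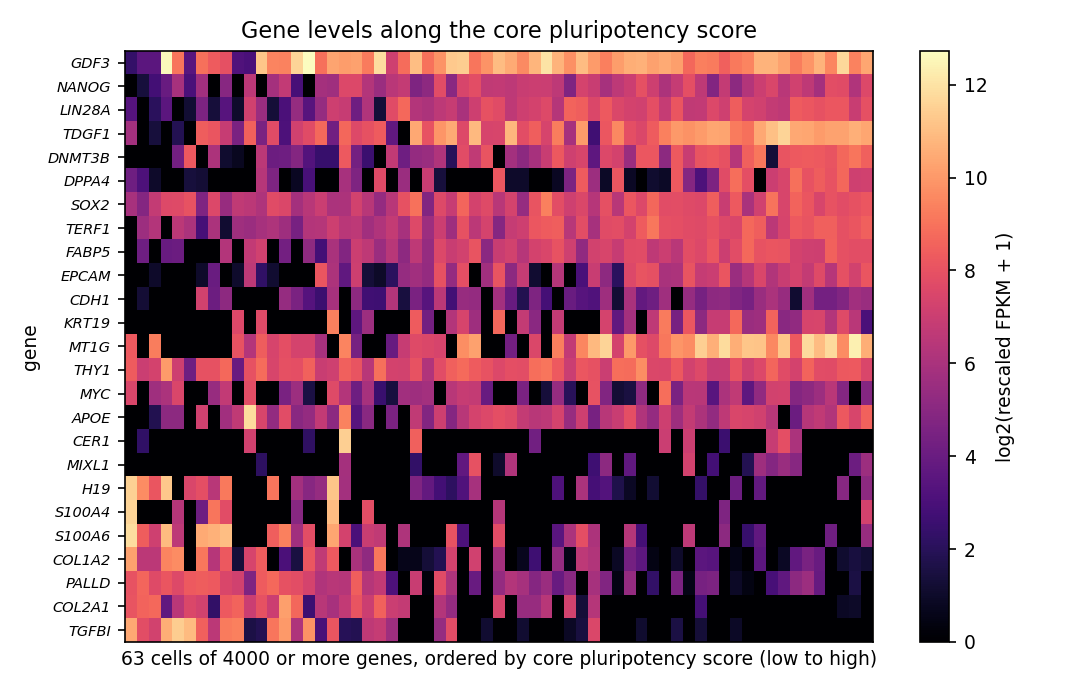
Columns are the 63 cells of 4000 or more genes in the order of the core pluripotency score, rows are genes, and colour is log2(rescaled FPKM + 1). The genes of the top rows from GDF3 to SOX2 are part of the score, and TGFBI and COL2A1 at the bottom are highest at the left.

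Within the core pluripotency list, each gene was set against the score of the other members. Of 25 measured members, 15 had a correlation of 0.4 or more and 0 one of -0.4 or less, with a median of 0.46 against 0.07 over all genes. LIN28A was highest at 0.71, followed by ZSCAN10 at 0.70, LIN28B and DNMT3B at 0.69 and TDGF1 at 0.67. NANOG was at 0.53, SOX2 at 0.47 and GDF3 at 0.25. SALL4 and TRIM71, present in 56 and 58 of the 63 cells, were at 0.10 and 0.05. SFRP2, a secreted WNT modulator, was at -0.38. These correlations describe how unevenly the members moved together, since the score is made of the same genes.

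Nodal pathway genes lay on both sides. NODAL had a correlation of 0.59 with the score and FOXH1 0.54, while LEFTY2 had -0.55. After taking out genes per cell these were 0.50, 0.45 and -0.50. LEFTY1 was at 0.13. Of the 9 measured members outside the pluripotency list, 3 reached 0.4 and 1 was at -0.4 or less.

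Epithelial genes were higher at the upper end, with exceptions. Of 16 measured members, 9 had a correlation of 0.4 or more and 1 of -0.4 or less, with a median of 0.43. EPCAM, a cell adhesion protein gene, ran from 0 over 51.7 to 284 and was at 0.66. CDH1, which encodes E-cadherin, ran from 0 over 17.0 to 151 and was at 0.43. SPINT2, a protease inhibitor gene, was at 0.58 and KRT19 at 0.53. The simple-epithelium keratin genes KRT8 and KRT18 were in 63 of 63 cells and had correlations of -0.33 and -0.31, and the plakoglobin gene JUP had -0.41. EPCAM was at 1 or more together with TGFBI in 21 of the 63 cells, alone in 28, and TGFBI was without EPCAM in 11. Their correlation over the 63 cells was -0.57. Some cells counted with both had 1 of the genes near the limit. Cell 94 had EPCAM at 273 and TGFBI at 1.15, and cell 37 had EPCAM at 1.24 and TGFBI at 533.

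Fibroblast genes went the other way in the 63 cells. Of 17 measured members, 11 had a correlation of -0.4 or less and 0 one of 0.4 or more, with a median of -0.48. Vimentin, encoded by VIM, was present in every one of the 63 cells, from 56.3 over 1366 to 4953, at -0.69. CCDC80 was at -0.55, SPARC at -0.53 and POSTN at -0.52, while the fibronectin gene FN1 was at -0.08 and PDGFRA at 0.11. COL1A2, a chain of type I collagen, was in 57 of 95 cells (60.0%) and in 40 of the 63, from 0 over 5.30 to 1204, at -0.45. Its partner COL1A1 was in 20 of the 63. COL1A2 was with TGFBI in 26 of the 63 cells and both were below 1 in 17. The interstitial genes LUM and DCN were in 3 and 1 of 95 cells, and FAP was below 1 in all. In 85 negative cells LUM, DCN and FAP were in 84, 70 and 64. The fibroblast list summed to between 220 and 16174 in the 63 cells. Genes that followed the fibroblast score most closely, outside the list, were TGFBI at 0.79, the microtubule protein gene MAP1B at 0.77 and CST3 at 0.75. Of 6543 genes, 3.88% had 0.4 or more and 2.46% -0.4 or less with that score.

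Metallothioneins are small cysteine-rich proteins that bind zinc and copper. Their score had a correlation with the pluripotency score of 0.77 over the 63 cells, 0.69 with genes per cell taken out and 0.68 over all 95. The score also depends on how many members are detected, with a median of 6 in the 63 cells and 3 in the cells under 4000 genes. The summed level differed the other way, with medians of 3825 and 10916.5. The 0.68 is therefore not shown for the summed level. In the 63 cells, all 7 measured members had a correlation of 0.4 or more with the pluripotency score, from MT2A at 0.47 to MT1F at 0.73. MT1X was the highest of them, from 0 over 1718 to 34409, and was in 61 of 63 cells. MT1G ran from 0 over 235 to 5185 and was in 48, and MT1H from 0 over 103 to 3171 and was in 46. In the 21 pairs of these 7 genes the correlation between cells ran from 0.46 to 0.75 with a median of 0.64, and from 0.29 to 0.69 with genes per cell taken out. Over all 95 cells the pairs ran from 0.06 to 0.65. MT1B and MT4 were below 1 in every cell. The genes are near-identical copies, so reads may be split between them and part of the joint movement may be shared reads, which was not tested.

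Metallothionein genes are known for metal response elements, short sites before the gene start. RefSeq promoter windows (GRCh38.p14, the 250 bases before the start) were at hand for 5 of the 11 list genes. Of these, 4 are shown, 3 for members detected in the cells and 1 for MT1B, below 1 in every cell. The search used TGCACNC and TGCGCNC on both strands, overlaps allowed, and matches are in capitals. MT1X lies at chr16:56682220-56682469, MT2A at chr16:56608334-56608583, MT1H at chr16:56669564-56669813 and MT1B at chr16:56651636-56651885, all on the plus strand.
MT1X: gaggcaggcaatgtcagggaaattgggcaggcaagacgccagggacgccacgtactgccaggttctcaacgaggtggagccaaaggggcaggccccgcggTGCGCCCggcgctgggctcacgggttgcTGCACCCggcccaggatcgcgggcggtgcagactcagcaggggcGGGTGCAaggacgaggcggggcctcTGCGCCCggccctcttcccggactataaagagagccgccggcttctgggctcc
MT2A: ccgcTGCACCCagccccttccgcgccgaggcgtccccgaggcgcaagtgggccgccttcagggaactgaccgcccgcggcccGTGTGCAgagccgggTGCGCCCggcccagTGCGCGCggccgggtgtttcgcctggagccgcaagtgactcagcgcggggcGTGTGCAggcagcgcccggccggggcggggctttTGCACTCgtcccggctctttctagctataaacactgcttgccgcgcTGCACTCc
MT1H: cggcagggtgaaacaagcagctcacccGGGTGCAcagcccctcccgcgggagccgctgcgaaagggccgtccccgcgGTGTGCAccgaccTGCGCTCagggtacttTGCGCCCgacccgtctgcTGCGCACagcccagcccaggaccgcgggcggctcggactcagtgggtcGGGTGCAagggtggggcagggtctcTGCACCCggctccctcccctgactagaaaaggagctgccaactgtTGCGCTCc
MT1B: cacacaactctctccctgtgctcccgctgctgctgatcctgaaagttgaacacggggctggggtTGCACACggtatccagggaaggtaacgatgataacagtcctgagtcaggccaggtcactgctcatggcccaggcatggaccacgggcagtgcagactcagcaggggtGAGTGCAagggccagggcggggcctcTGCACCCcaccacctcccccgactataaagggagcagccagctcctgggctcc
MT1H had 8 matches, MT2A 7, MT1X 4, and MT1B and MT4, which were below 1 in every cell, 3 each. Of 35116 windows of the same length, 24.8% held at least 1 match, 1.58% at least 3 and 0.370% at least 4. A match is a string of letters and not a site in use, and the build differs from the hg19 of the deposited values.

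Cell cycle genes varied widely between cells and followed genes per cell. The 33 genes of G2 and M phase were held in numbers from 10 to 33 per cell in the 63 cells. CCNB1, the cyclin of mitotic entry, ran from 0 over 211 to 1258, and CDC20, an activator of the anaphase-promoting complex, from 0 over 115 to 744. PCNA, the sliding clamp of replication, ran from 0 over 437 to 1401. The G2 and M score had a correlation of 0.63 with genes per cell and 0.46 with the pluripotency score, and the latter was 0.19 with genes per cell taken out. Outside the list, FAM83D, a spindle protein gene, followed it most closely at 0.69, then NCAPG, KPNA2, BORA and PSRC1 at 0.65 to 0.61. Of 6528 genes, 2.41% reached 0.4 and 0.383% -0.4. The mesendoderm score had weaker partners, PLBD1 at 0.49 and VAMP8 at 0.48, and of 6555 genes 0.427% reached 0.4 and 0.137% -0.4.

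DPPA4, a chromatin protein gene of pluripotent cells, was in 62 of 95 cells (65.3%), 38 of the 63 and 24 of the 32. In the 63 cells it ran from 0 over 1.65 to 494, with a median of 72.1 where present, and its correlation with the score of the other members was 0.47. NANOG was present in 35 of the 38 cells with DPPA4 and in 23 cells without it, while 2 cells held neither. Some DPPA4 values lay close to the limit of 1, such as 1.003 in cell 19 and 0.914 in cell 74. The split into cells with and without DPPA4 is therefore not sharp.

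Genes with the most spread for their level, among those present in 10% to 90% of cells, depended on which cells were used. Over the 95 cells, SNAR-C3, SNORA81, ZGRF1, MIR181A2HG and CAB39L led, and for 14 of the 15 highest the top cell was under 4000 genes. For 14 of 15 the top cell also gave over 50% of the gene's sum. SNORA81, for example, was at 17161 in cell 91 and at most 594 elsewhere. Over the 63 cells only SNAR-C3 of these remained among the 15, with a highest value of 142324 in cell 11. The others there included the urokinase receptor gene PLAUR (2914 in cell 3, next 273), GAS6-AS2 (2119 in cell 53, next 86.6) and CER1. They also included S100A4, S100A6 and GSN of the fibroblast list, and H19. S100A4 was at 3088 in cell 30 and at 2007 in the next cell, and was in 11 of the 63. It was in 85 of 85 negative cells.

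**Figure D5:**
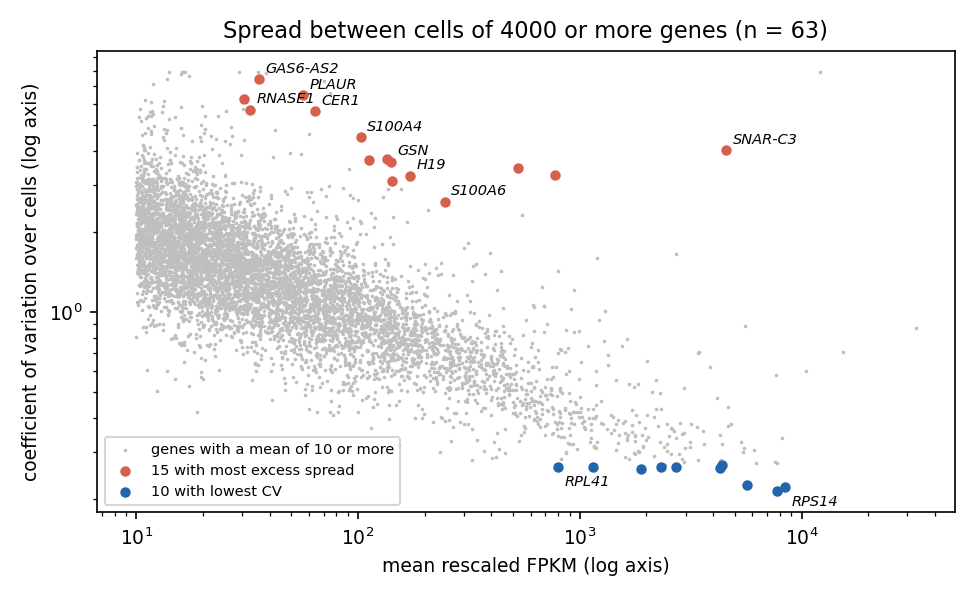
Each grey point is a gene with a mean of 10 or more over the 63 cells, with the mean rescaled FPKM and the coefficient of variation on log axes. The 15 genes with the most spread for their level, among those present in 10% to 90% of cells, lie above the cloud and the 10 with the lowest coefficient, mostly ribosomal protein genes and GAPDH, at its lower edge.

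Genes at 1 or more in some of the 63 cells and below 1 in others were common, with no level required in the cells that held them. Whether a value below 1 was absence or missed detection was not tested. Of 6694 genes with a mean of 10 or more over the 63 cells, 3425 (51.2%) were at 1 or more in 25% to 75% of them. By their median where present, the highest were SNAR-C3 at 6054, SNORD140 at 577, MIR3652 at 388, MT1E at 270, C9orf135 at 248 and MT1H at 226. SNORD140, MIR3652 and other short genes have FPKM that a few reads can make high. FOXD3-AS1, in 39 of the 63 cells and in 0 of 92 day 8 and 85 negative cells, had a median of 184 where present. Use of strand in the counting is not given in the sources used here, so its reads cannot be told apart from those of an overlapping gene. At the even end, RPS19 had a coefficient of variation of 0.213, RPS14 of 0.221 and GAPDH of 0.225. GAPDH ran from 1785 to 8450.

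Over all kept cells, positive cells were less alike than negative and day 8 cells. Among cells of at least 4000 genes, their correlation lay above that of negative cells and still below that of day 8 cells. The median Spearman correlation between 2 cells, over genes with a mean of 10 or more, was 0.34 in the 95 positive cells, 0.46 in 85 negative cells and 0.52 in 92 day 8 cells. The genes were picked within each group and set of cells, so the values rest on different genes. For the kept cells these numbered 6598, 6514 and 5315. With at least 4000 genes it was 0.48, 0.46 and 0.53. Within the 32 cells it was 0.29, and between them and the 63 it was 0.30, both over the genes picked in the 63. The median coefficient of variation per gene was 2.13 over the 95 cells and 1.32 over the 63, against 1.27 and 1.15 in negative and day 8 cells of at least 4000 genes. These are single cultures, so the differences were not tested. In day 8 1 pair of cells had a correlation of 0.996, while no pair of positive cells held identical values.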

How the data were processed

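Single-cell mRNA libraries of 96 cells in each of 5 groups were used. The authors deposited FPKM, 1 table per group with 27021 genes. STAR, Cuffnorm and hg19 are named per the submitters' processing notes, with versions not given in the sources used here, and joint normalization of the tables is not stated. FPKM are not counts, so the depth per cell is unknown. No column was left unused.

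Cells were grouped by their labels. FPKM were rescaled to 1000000 per cell, and a gene was detected at 1 or more. Python 3.11.15, numpy 2.4.6, pandas 2.3.3 and scipy 1.17.1 were used. Scores are means of log2(value + 1). Excess spread is log2 of the squared coefficient of variation minus its running median over 201 genes. Scripts were tested on simulated data. Doublets cannot be called from these values, and leaving out the 5% of cells with most genes was an alternative.

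Members and the 29 gene lists (617 genes) were chosen with earlier results of these data known. Named genes were the 5 markers, list members, the 15 with most excess spread, the 15 on and off genes, the 10 most even, the 10 closest to each of 4 scores in each direction, the 10 highest and 10 lowest in cells under 4000 genes, and DPPA4, COL1A2 and MIXL1. Chosen after values were seen were the correlation size of 0.4, the list pairs recomputed, the genes followed across groups, the gene pairs, the cells named, the promoter search and the setting without cell 78. Some genes of the rule are not named in the text.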

Additional observations from a re-analysis of the deposited data

How the results depend on the processing

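No paired analysis was possible because each sample is 1 cell and the cell numbers shared between groups pair nothing. Of 161 alternatives computed for 24 results, 141 stayed within the limits set (a share within its interval, a count within 1.5 times, a correlation within 0.1), 19 moved and 1 reversed. The cause was not tested. Everything without cell 78 stayed within them, a setting added after seeing the data.

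With cells of 4000 or more genes only, the share with all 5 markers was 76.2% (61.1% over the 95 cells), the median coefficient of variation 1.32 (2.13), the correlation between positive cells 0.48 (0.34), and 1 of the 15 most variable genes remained. With FPKM as deposited, 1 of these 15 remained and 1969 genes were at least 2-fold higher in cells under 4000 genes, and with housekeeping scaling 6 of the 15 remained. Over all kept cells the pluripotency score correlated at -0.019 with the fibroblast, -0.22 with the mesenchymal and 0.66 with the G2 and M score, and reversed with the contractile score from -0.53 to 0.18. With genes per cell taken out over these 95 cells, the fibroblast, mesenchymal and contractile values were -0.49, -0.54 and -0.40. With genes per cell taken out in the 63 cells it was 0.60 with epithelial, 0.64 with ribosomal protein and 0.19 with G2 and M genes. Of the 15 on and off genes, 9 remained at a detection value of 5 and 4 over all kept cells. Shares of 4 single markers also moved. NANOG was in 92.1% of the 63 cells (84.2% over the 95) and GDF3 in 100% (94.7%). At a detection value of 5, LIN28A was in 82.1% of the 95 cells (92.6% at 1) and DNMT3B in 66.3% (78.9%). The number of cells under 4000 genes has no value in cells of 4000 or more only.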

Other observations

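Other gene groups of the 63 cells moved with the pluripotency score to different degrees. Oxidative phosphorylation genes had a list correlation of 0.67 with it, and 0.52 with genes per cell taken out, while glycolysis genes had 0.36 and -0.03. Of 31 measured oxidative phosphorylation genes, 6 reached 0.4 on their own, with a median of 0.17. Over the 6535 genes outside the pluripotency list, 6.03% reached 0.4 and 3.38% were at -0.4 or less. The median over all genes was 0.07, and the interferon response median below lay near it. Of 8 measured interferon response genes 1 reached 0.4, with a median of 0.09, and of 14 p53 target and senescence genes 2 were at -0.4 or less, with a median of -0.03. As lists, the interferon response genes had 0.24, and -0.06 with genes per cell taken out. The p53 target and senescence list had -0.22, and -0.41 with genes per cell taken out. The interferon-inducible membrane protein gene IFITM1 was present in 63 of 63 cells, from 5.34 over 3644 to 10105, and had a correlation of 0.56. CD24, a surface glycoprotein gene, was in all 95 cells and also had 0.56. DUSP6, a phosphatase gene induced by ERK signalling, was in 56 of the 63 cells and had -0.46. CDKN1A, a p53 target that inhibits cyclin-dependent kinases, was in 33 of the 63 cells, from 0 over 1.28 to 259, and had -0.46. The pluripotency-associated surface gene THY1 was in 63 of 63 cells, from 14.7 over 235 to 1059, and had 0.03. Of the delivered factors, KLF4 was in 30 of the 63 cells and MYC in 49, with correlations of 0.48 and 0.08. For KLF4 and MYC as for SOX2, the share of viral transcripts was not tested.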
